A study of Oryzias latipes with 18 samples.

Results

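The elements described here were accessible elements of the medaka genome that were merged from 9 peaks and were weak for such elements. They were selected on 2 values of the deposited list of accessible elements, a peak score under 60 and a number of merged peaks equal to 9, on the 24 chromosomes. The rule gave 1410 elements, which were 9.68% of the 14564 elements of 9 peaks and 0.977% of the 144280 elements on the chromosomes. Chromatin accessibility had been measured by Omni-ATAC in whole embryos of Oryzias latipes, bred from fish of the strains Qurt and d-rR-Tg(olvas-GFP), at stages 11, 15, 19, 25, 29, 32, 36, 38 and 40, with 2 replicates per stage and 18 libraries in all. Yolk was removed, and no tissue was separated, so an element open in few cells and one open weakly in many could not be told apart. One list pooled all the libraries and held no value per stage or replicate. Consequently, spread between replicates could not be given, the depth behind an element was unknown, and the intervals below cover counting error only, with neighbouring elements not independent of each other.

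ATAC-seq uses the transposase Tn5, which inserts sequencing adapters where DNA is not covered by nucleosomes, and a pile of such insertions is called as a peak. In animal genomes many promoters of widely used genes stay nucleosome-depleted in most cells and at most times, whereas enhancers are more often open in particular cells or stages. In the whole list the median score rose with the number of merged peaks up to 9, from 13.6 for 1 peak to 149, and the cause was not tested. The elements here were chosen because they combined 9 peaks with a score that was low for that number. The score was read as the −log10 of the q value that MACS2 gives a peak. The number of merged peaks equalled the number of stages, but the list does not say that each stage gave one peak.

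The score of a merged element behaved as the value of a single peak and not as a mean. This was examined over the whole list, with elements outside the chromosomes included. Among elements with a score from 15 to under 30, 47.9% of single-peak scores recurred exactly in another single-peak element. For elements merged from 3 peaks 43.9% of scores recurred among the single-peak scores, for 5 peaks 41.8% and for 9 peaks 18.0% (n = 100). After a shift of the scores by 3e-05 the share was at most 0.423% in these groups. Over the same whole list, the lowest score was 7.05 for 1 peak and 13.2 for 9 peaks, and the median was 13.6 and 149. On the chromosomes the lowest score for 9 peaks was 18.2. These values cannot tell the strongest merged peak from another single one. The score was read as that of the strongest merged peak. A weak element of 9 peaks thus stayed under 60 in its best peak too, under this reading.

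Scores of the 1410 elements ran from 18.2 to 59.975, with a median of 48.8 and quartiles of 41.4 and 54.6. The 10350 elements of 9 peaks with a score from 60 to under 300, used as the contrast, had a median score of 137. These values follow from the selection. Over all elements on the chromosomes the median score was 31.1, with quartiles of 16.6 and 67.6. The members were thus weak among elements of 9 peaks and not among all elements. The limit of 60 fell in the middle of a continuous range. Just under it lay elements in bcorl1 (59.975), LOC101165307 (59.961), at an end of ggnbp2 (59.932), and in LOC101156882 (59.896) and csmd3 (59.892). Just over it lay elements 4.53 kb from LOC105354559 (60.01), in LOC105356814 (60.02), at an end of LOC101164499 (60.05), in tmem132e (60.08) and 7.96 kb from LOC101158210 (60.10).

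The weakest member, with a score of 18.2, was also among the wide ones. It spanned 970 bp (chr11:26940028-26940997 of assembly ASM223467v1), 67.6 kb from LOC111948246, the closest gene. The next one, with a score of 20.2 and 964 bp, had its midpoint in ar-alpha, which encodes an androgen receptor (chr10:22176069-22177032). The midpoint lay 331 bp from the nearest annotated gene end, so the element reached across that end. The others of the lowest 5 lay in hnrnpll, an RNA-binding protein gene (20.4), and at ends of LOC101166997 (21.03) and LOC101174545 (21.8).

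Weak elements were more varied in width than the contrast. Their median width was 304 bp with quartiles of 198 and 454 bp, against 295 bp with quartiles of 213 and 415 bp. The medians differed little, but both tails were heavier. A width of 150 bp or less was found in 136 weak elements (9.65%, 95% Wilson interval 8.21 to 11.3) and in 425 of the contrast (4.11%, 3.74 to 4.51). A width over 600 bp was found in 168 (11.9%, 10.3 to 13.7) and 813 (7.86%, 7.35 to 8.39). Width comes from the same peak calls as the score and the number of peaks, so these values are a description.

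**Figure D1:**
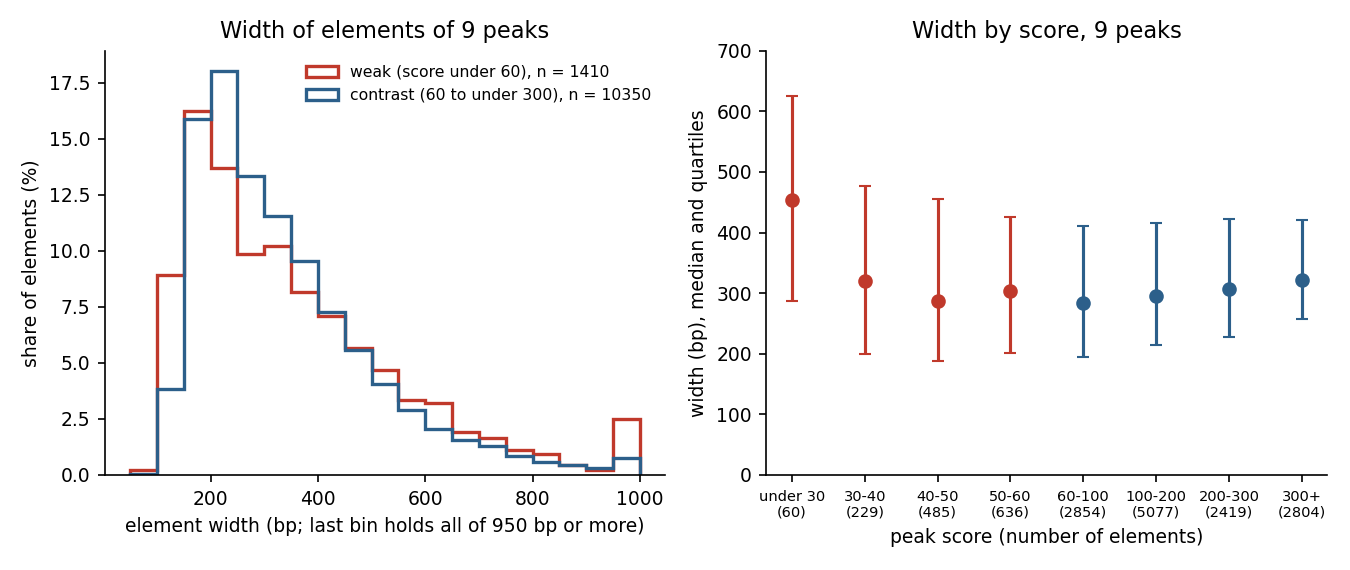
Left, share of elements (%) by width in bins of 50 bp for the 1410 weak elements and the 10350 elements of the contrast. Right, median width with quartiles (bars) of elements of 9 peaks by score, with weak elements in red. Weak elements were over-represented below 150 bp and above 600 bp, and the 60 elements with a score under 30 had a median of 454.5 bp.

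The elements with the lowest scores were wide more often, although most wide ones had higher scores. A width over 600 bp was found in 20 of 60 elements with a score under 30 (33.3%, 22.7 to 45.9), 33 of 229 from 30 to 40 (14.4%), 58 of 485 from 40 to 50 (11.96%) and 57 of 636 from 50 to 60 (8.96%, 6.98 to 11.4). The 60 elements with a score under 30 had a median width of 454.5 bp, whereas the median was 320 bp from 30 to 40, 287 bp from 40 to 50, 303 bp from 50 to 60 and 283.5 bp from 60 to 100. Of the 5 widest members 3 lay away from genes, with 1861 bp at 15.6 kb from LOC111947892 (score 40.1), 1404 bp at 34.2 kb from LOC105357891 (52.9), and 1380 bp at 8.90 kb from LOC110016030 (46.8). The other 2 lay in runx1t1, a transcriptional corepressor gene (1353 bp, 40.7), and in grk4, a G protein-coupled receptor kinase gene (1274 bp, 58.6). The 5 narrowest, from 93 to 103 bp, lay at ends of LOC101171046 and LOC101154988, in xrcc1, a DNA repair gene, in saal1, and 1.11 kb from LOC101168430. Elements of more peaks were wider under the same score limit, with scores not held fixed. Among elements under 60 the median width was 188 bp for 1 peak, 254 bp for 2 to 4, 283 bp for 5 to 8, 304 bp for 9 and 643 bp for 10 or more.

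Nearly 1 in 2 weak elements lay at the end of a gene, but fewer than in the contrast. Elements were placed by their midpoint against 26832 RefSeq genes as a gene-end element where an end of any gene was no more than 1 kb away, otherwise as inside a gene, as proximal up to 5 kb from a gene, or as distal. The gene table gives no strand, so starts and 3′ ends could not be separated here. Of the weak elements 680 (48.2%, 45.6 to 50.8) lay at gene ends, 536 (38.0%) in gene bodies, 110 (7.80%) were proximal and 84 (5.96%) distal. In the contrast these shares were 59.2%, 28.3%, 6.62% and 5.91%. Of all elements on the chromosomes they were 23.4%, 51.5%, 7.87% and 17.3%. Weak elements thus lay at gene ends more often than all elements did, and less often in gene bodies and at distal places.

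Against the contrast, the share at gene ends was lower in weak elements, by a difference of −10.98 points (95% Newcombe interval −13.7 to −8.20), with the same sign on 23 of 24 chromosomes. The share in gene bodies was 9.75 points higher (7.11 to 12.5, 23 of 24 chromosomes). For proximal elements the difference of 1.18 points (−0.197 to 2.77) and for distal elements that of 0.0444 points (−1.17 to 1.47) had intervals that contained 0. Weak elements thus differed from the contrast in the balance of gene ends and gene bodies. At scores of 300 or more the distal share was 3.07% (2.49 to 3.77), below the 5.96% (4.84 to 7.32) of the weak elements. The size of these differences followed the definition: with gene bodies assigned before gene ends they were −6.59 points at gene ends and 5.36 points in gene bodies, and with a window of 500 bp −18.0 points at gene ends. Of the 680 at gene ends 658 (96.8%) belonged to protein-coding genes and 18 (2.65%) to lncRNA genes, against 96.9% and 2.37% in the contrast.

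Weak elements near a gene end sat on the end less often than those of the contrast. An annotated end was covered by 233 weak elements (16.5%, 14.7 to 18.6) and by 3958 of the contrast (38.2%, 37.3 to 39.2), a difference of −21.7 points (−23.8 to −19.5) with the same sign on all 24 chromosomes. Of all elements on the chromosomes 9.05% (8.90 to 9.20) covered one, so the weak share was above that of all elements. Among gene-end elements only, 34.3% of the weak (30.8 to 37.9) and 64.6% of the contrast covered the end, against 38.7% of all elements. Under a score of 60 the share was 11.5% for 1 peak, 19.2% for 2 to 4, 28.3% for 5 to 8 and 60.5% for 10 or more, so a low share was not particular to 9 peaks. For weak gene-end elements the median distance of the midpoint to the end was 363 bp (quartiles 141 and 604 bp), against 109 bp (39 and 328 bp) in the contrast. The count over a gene end was chosen after the first shares had been seen.

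**Figure D2:**
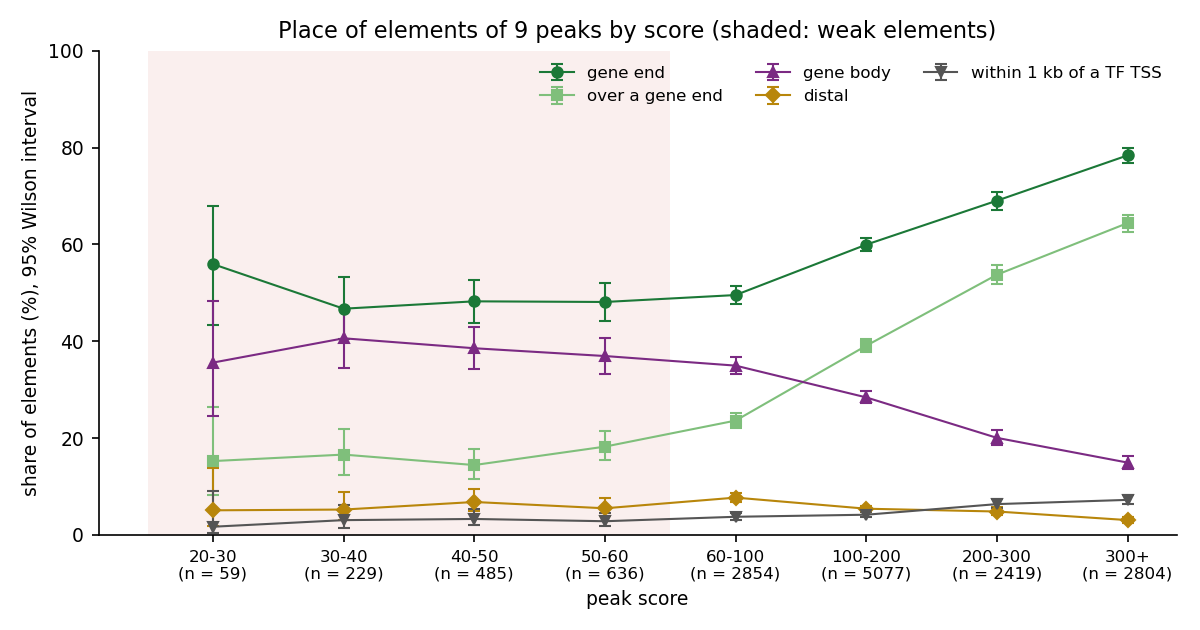
Share of elements of 9 peaks (%) by place along the peak score, with 95% Wilson intervals (bars) and weak elements shaded. The share at gene ends was 49.5% from 60 to 100, about as below 60, and 78.4% at 300 or more. The share over a gene end was 23.6% from 60 to 100 and 64.4% at 300 or more. Both were flat below 60.

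The gene-end share was flat within the weak range and up to a score of 100, whereas the share over a gene end rose from 60. The gene-end share was 46.7% from 30 to 40 (40.4 to 53.2, n = 229), 48.2% from 40 to 50 (n = 485), 48.1% from 50 to 60 (n = 636) and still 49.5% from 60 to 100 (47.7 to 51.4, n = 2854). Above that it was 59.96% from 100 to 200, 69.0% from 200 to 300 and 78.4% at 300 or more. Elements just above the limit were accordingly at gene ends about as often as the weak ones, and the difference from the contrast came from scores of 100 and more. Elements over a gene end made up 18.2% from 50 to 60, 23.6% from 60 to 100 and 39.1% from 100 to 200. The 59 elements from 20 to 30 had a gene-end share of 55.9%, with an interval (43.3 to 67.8) that covered all the weak bands.

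Against elements under the same score limit but of fewer peaks the order was the opposite. Among elements with a score under 60 the gene-end share was 14.5% for 1 peak (14.1 to 14.8), 16.2% for 2 to 4 peaks (15.8 to 16.5), 28.1% for 5 to 8 (27.5 to 28.8), 48.2% for 9 and 67.7% for 10 or more (62.9 to 72.1). Gene-body shares were 58.0%, 55.9%, 49.6%, 38.0% and 22.4%, and distal shares 19.4%, 19.8%, 14.2%, 5.96% and 4.58%. In these shares a weak element of 9 peaks was closer to the contrast than to one of few peaks. For elements over a gene end it was not, with 1.66% for 1 peak, 3.10% for 2 to 4, 7.95% for 5 to 8, 16.5% for 9 and 38.2% in the contrast. Score was not held fixed in this series, since the median score was 13.6 for 1 peak, 24.4 for 2 to 4, 39.2 for 5 to 8 and 48.8 for 9.

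**Figure D3:**
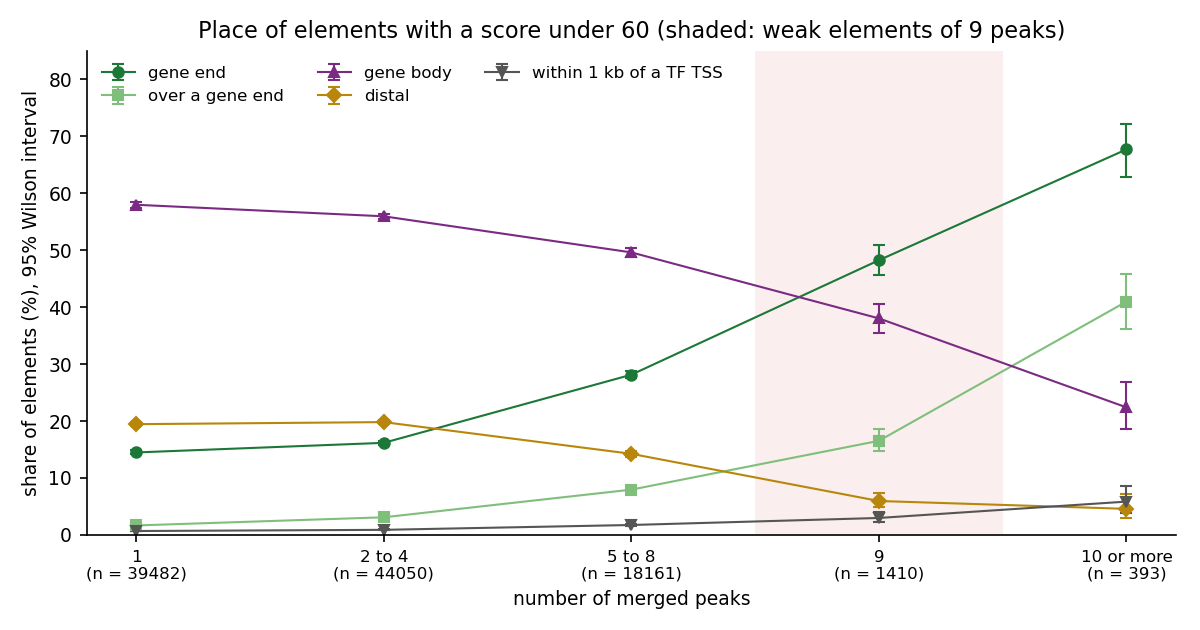
Share of elements with a score under 60 (%) by place and by number of merged peaks, with 95% Wilson intervals (bars) and the weak elements of 9 peaks shaded. The share at gene ends was 14.5% for 1 peak and 48.2% for 9 peaks, and the distal share was 19.4% and 5.96%.

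The difference at gene ends was found among narrower elements and was not detectable among the widest. By width the weak minus contrast difference was −22.2 points (−31.4 to −12.6) up to 150 bp, −13.5 (−20.4 to −6.63) from 150 to 200 bp, −18.0 (−23.5 to −12.3) from 200 to 300 bp and −8.86 (−15.3 to −2.47) from 300 to 400 bp. It was −2.71 points (−8.83 to 3.35) from 400 to 600 bp and 1.08 points (−7.02 to 9.35) above. Up to 200 bp the difference was −16.2 points and over 400 bp −2.26 points, and the narrow minus the wide difference was −14.0 points (−21.3 to −6.55). For elements over a gene end the difference was largest in the middle widths, with −27.3 points from 200 to 300 bp and −25.4 points from 300 to 400 bp, and it was −5.98 points (−12.7 to 1.68) above 600 bp. These widths were chosen after the shares had been seen. Within the weak set, median widths were alike at gene ends (318 bp), in gene bodies (306 bp) and at distal places (321.5 bp), and 240.5 bp at proximal ones.

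The lower share at gene ends than in the contrast was spread over the genome. Weak elements made up from 7.11% (chromosome 8) to 11.5% (chromosome 1) of the elements of 9 peaks on a chromosome. Chromosome 7, with 86 weak elements the most of any, had the lowest gene-end share, 29.1% against 58.9% in the contrast, and chromosome 19 was the exception with 68.8% of 48 against 66.8%. Without chromosome 7 the difference at gene ends was −9.75 points.

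**Figure D4:**
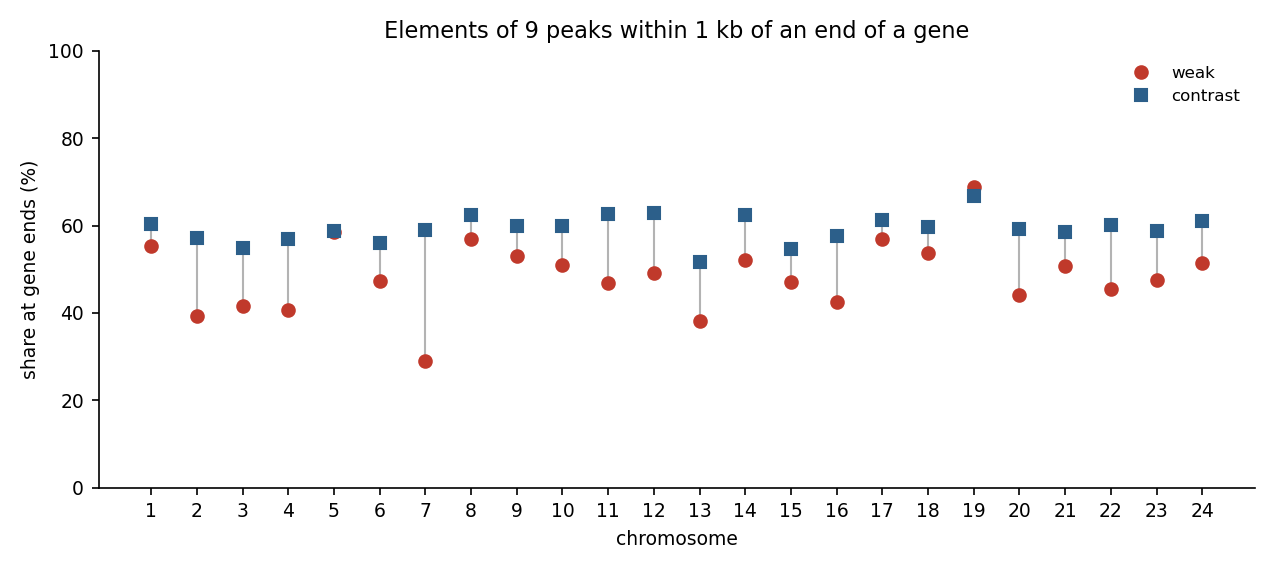
Share of elements at gene ends (%) on each of the 24 chromosomes for weak elements (circles) and the contrast (squares) of 9 peaks. The weak share was the lower one on 23 chromosomes, and chromosome 19 was the exception.

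Transcription factor (TF) genes and lncRNA genes of the study's own gene models carry a strand, so distances from the transcription start site (TSS) could be signed. All distances are those of an element's midpoint from the TSS of these models. RefSeq models differ at some genes. Some weak elements near a TF TSS, such as those of sox21 and Pou4f3, lay inside a RefSeq gene and over 1 kb from any gene end. TFs bind DNA and set which genes are used, and in vertebrates many developmental TF genes have broad accessible regions around their promoters. Of the weak elements 42 (2.98%, 2.21 to 4.002) lay within 1 kb of 1 of the 1532 TF gene TSSs, against 473 (4.57%, 4.18 to 4.99) in the contrast, 203 (7.24%) at scores of 300 or more and 1.55% of all elements. The difference from the contrast was −1.59 points (−2.47 to −0.498), with the same sign on 20 of 24 chromosomes. It did not hold at a limit of 50, at a limit of 30, with a window of 2 kb or for isolated elements. Beyond the window, the nearest TF TSS was a median of 153 kb away for weak elements, 137 kb for the contrast and 166 kb for all elements.

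Weak elements near TF genes had their midpoint mostly downstream of the TSS. They were downstream in 34 of 42 cases (81.0%), against 267 of 473 (56.4%) in the contrast and 57.9% of all elements there, a difference of 24.5 points (9.59 to 34.6) with the same sign on 15 of the 21 chromosomes that had elements of both kinds. The median position was 243 bp downstream (quartiles 69 and 547 bp), against 20 bp downstream in the contrast (quartiles −81 and 149 bp). Only 15 (35.7%) covered the TSS, against 287 (60.7%). Side is that of the midpoint, so most of these 15 were counted as downstream, as at irf5. The comparison of sides was chosen after the distances had been seen, and its interval contained 0 without elements closer than 500 bp to another (17.4 points, −11.9 to 35.4) and at a score limit of 30. At the 3′ ends of the 1399 TF genes longer than 2 kb the shares were alike, with 11 weak elements (0.780%, 0.436 to 1.39) and 76 of the contrast (0.734%, 0.587 to 0.918).

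**Figure D5:**
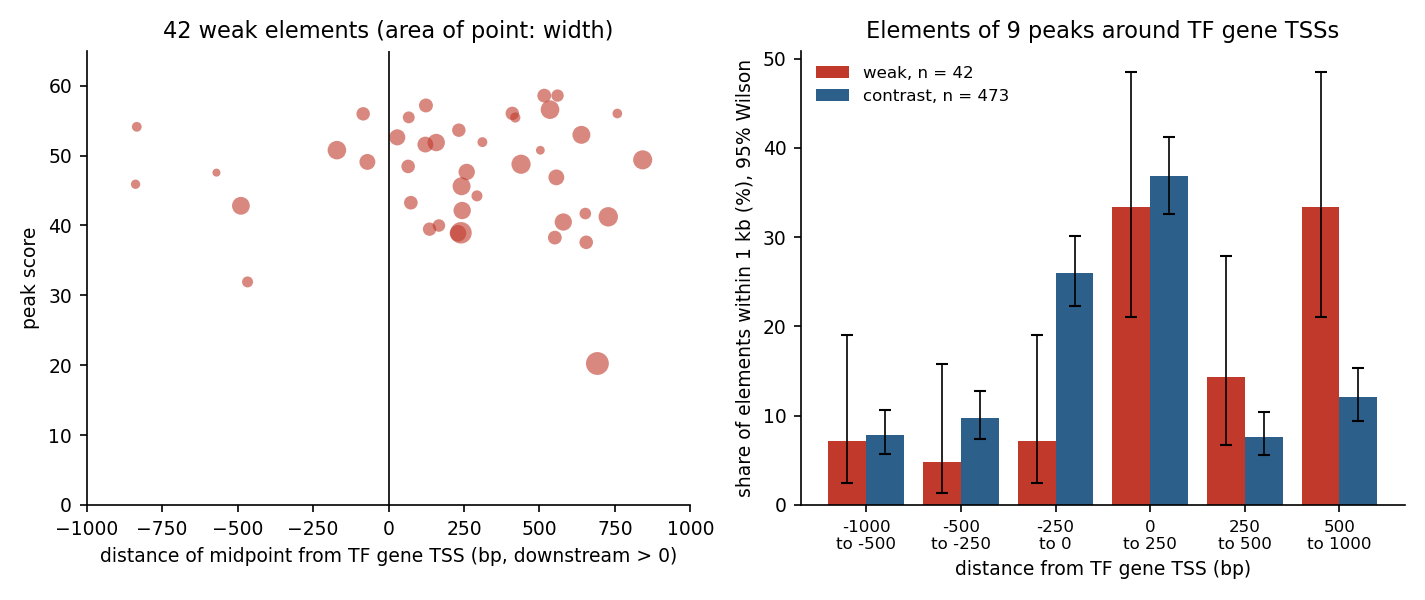
Left, peak score of the 42 weak elements within 1 kb of a TF gene TSS against the distance of the midpoint (bp, positive downstream), with the area of a point in proportion to element width. Right, share of the 42 weak and 473 contrast elements (%) per distance class with 95% Wilson intervals (bars). The classes from 0 to 250 bp and from 500 to 1000 bp downstream each held 14 of the 42.

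Most of these TF genes had a further element in the window. Another element lay within 1 kb of the TSS in 30 of 42 cases, a stronger one in 22 and one of 300 or more in 5, and in 17 the strongest other element lay within 250 bp of the TSS. Matching counts for the contrast are not given here. Of the 1532 TF genes 1327 (86.6%) had an element of any kind within 1 kb of the TSS. That share needs only 1 element in the window, so it is no background for a further one. The strongest other element had a median score of 82.8 and a median position 46.5 bp downstream. In 12 cases the weak element was the only one. Of the 34 downstream elements 18 had a stronger element beside them. Counts of stronger neighbours depend on the low score used for the selection, so they are a description only. At gene ends in general, 44.0% of weak and 15.1% of contrast elements had a stronger one within 1 kb.

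The 5 members closest to a TF TSS lay no more than 74 bp from it by the study's gene models. At irf5, an interferon regulatory factor, the element lay 29 bp downstream (score 52.6, 478 bp, chr23:23853319-23853796), with only a weaker one of 19.6 in the window. At Irf3, a second factor of this family and a mediator of the antiviral response, it lay 65 bp downstream (48.4, 340 bp) and was alone. At ZNF211, a zinc-finger gene, it lay 67 bp downstream (55.5), with an element of 88.2 further in. At IGDB07524, matched to tshz3, a zinc-finger homeobox gene, it lay 70 bp upstream (49.1). At sox21, an HMG-box factor of the neural tube, it lay 74 bp downstream (43.3, 344 bp), with a weaker one of 31.1 at 807 bp. By RefSeq the sox21 element lay inside a gene, more than 1 kb from any gene end.

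Other members lay beside a stronger element near the TSS, with a score of 300 or more at 5 of the 42. These examples were chosen after their values had been seen. At vdr, the vitamin D receptor, the weak element of 119 bp lay 570 bp upstream with a score of 47.6, while an element of 602 lay 1 bp from the TSS. At xbp1, a factor of the unfolded protein response, the weak element (41.7) lay 652 bp downstream and an element of 309 lay at 79 bp. At myb, a regulator of blood progenitors, a 142 bp element (50.8) lay 503 bp downstream and one of 123 at 136 bp. At rfx3, a factor for cilia, the weak element (37.6) lay 655 bp downstream and one of 125 at 166 bp. At runx3 it lay 834 bp upstream (54.1) and an element of 170 lay 28 bp upstream of the TSS. By RefSeq this weak element lay inside a gene, so its side rests on the study's gene model. At these 5 genes the stronger element was the one closer to the TSS.

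At 20 of the 42 no stronger element was present, since the weak one was alone in 12 cases and had only weaker ones beside it in 8. At Pou4f3, a factor of sensory neurons and hair cells, it was alone at 410 bp downstream (56.0). At thrb, a thyroid hormone receptor, it was alone at 439 bp downstream (48.8, 678 bp). At rarga, a retinoic acid receptor, it lay 158 bp downstream (51.9, 558 bp) with a weaker one of 36.5 at 762 bp. The weak element was thus the strongest one in the window at these genes, which were also chosen after their values had been seen. Some TF genes named in the study's text were looked up by name, namely egr1, pou5f3, sox11, rxrgb, rarb, pparaa, nr2f6, sp6 and eomesb. None had a weak element of 9 peaks within 1 kb of the TSS. With such an element at 2.74% of all TF genes, this is near the background and not a result about these genes.

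By family, weak elements were thinly spread. Of 1532 TF genes 42 (2.74%) had one within 1 kb of the TSS, and 431 (28.1%) had one of the contrast. The C2H2 zinc-finger genes, the largest family, stood at 16 of 478 (3.35%), and the homeobox genes at 4 of 226 (1.77%), namely irx2a, barx1, tgif1 and irx5b. Of the 126 bHLH genes, which include many regulators of nerve and muscle, none had a weak one and 38 a contrast element. Weak elements were found at 3 of 25 THR-like nuclear receptor genes (vdr, rarga and thrb), 3 of 30 MYB genes and 2 of 12 IRF genes, against contrast elements at 6, 15 and 3. No member was found in the ARID, CUT, E2F, MH1, PAX, RHD, RXR-like and T-box families of at least 10 genes. Counts this small were not compared between families.

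The share near lncRNA genes, which are transcribed but code for no protein, did not stand apart from that of all elements. Within 1 kb of the 1055 lncRNA TSSs lay 8 (0.567%, 0.288 to 1.12), against 70 (0.676%, 0.536 to 0.854) of the contrast and 0.419% of all elements. The difference from the contrast was −0.109 points (−0.440 to 0.457), with an interval that contained 0. Upstream and downstream held 4 each, and 1 covered the TSS, against 30 of 70 (42.9%) in the contrast and 24.5% of all elements there. The 3 closest were those of IGDB13906 (15 bp upstream, score 40.5), IGDB16425 (300 bp downstream, 59.1) and IGDB12668 (308 bp downstream, 45.2). At IGDB13848, whose closest RefSeq gene was the microRNA gene mir22-1, the weak element (51.9) lay 796 bp downstream and an element of 592 lay 156 bp upstream.

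Counted by RefSeq gene, weak elements were near an end of 823 of 26832 genes (3.07%, 2.87 to 3.28), and contrast elements near 6692 (24.9%). For protein-coding genes the shares were 3.50% and 28.8%, for lncRNA genes 1.07% and 7.30%, and for tRNA genes 13 of 763 (1.70%) and 7.47%. Groups of ubiquitously used genes were taken by the first letters of the symbol, and each stands beside the 3.50% of protein-coding genes. Of 71 ribosomal protein genes 37 (52.1%) had a contrast element and 1 a weak one, rpl13, of the large subunit (515 bp, score 28.8, 532 bp from an end, chr3:20443446-20443960). Of 61 oxidative phosphorylation genes 34 (55.7%) had a contrast element and none a weak one. Contrast elements were near 7 of 33 proteasome genes (21.2%) and 13 of 39 translation initiation genes (33.3%), and weak ones near none.

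The developmental and structural groups taken here were empty, whereas solute carrier genes were not. No weak element lay near an end of the 18 Hox genes, which pattern the body axis, the 39 Wnt and FGF genes, which mostly encode secreted signals, or the 32 genes with symbols in col, most of them collagens. The contrast counts there were 4, 7 and 7. Solute carrier genes, which mostly encode membrane transporters, had weak elements at 13 of 209 (6.22%, 3.67 to 10.3) and contrast elements at 68 (32.5%). For protein-coding genes the shares were 3.50% and 28.8%. Several groups were looked at and the difference was not tested, so this is a description. Among the 13 were slc22a17 (score 24.3, 631 bp from an end), slc19a1, a folate transporter (30.2, 640 bp), and slc26a2, a sulfate transporter (36.8, 165 bp). At 3.07% of all genes, about 1 weak element is the background for a group of 33, so the empty groups are not a result about these genes.

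Most genes closest to a weak element had only 1. Weak elements were closest to 1342 genes, of which 1278 had 1, 60 had 2 and 4 had 3. With 1410 elements and 26832 genes, few shared genes can follow from the numbers alone. No matching count for other elements is given here, so this is not a trait of the set. At ippk, an inositol phosphate kinase gene on chromosome 5, elements of 213, 628 and 497 bp lay at one end, in the body and at the other end, with scores of 46.3, 55.1 and 59.4. At phldb1 on chromosome 13 all 3 lay in the gene body (227, 249 and 1082 bp, scores 39.4, 44.6 and 33.9). LOC101172846 on chromosome 18 had 2 at its ends and 1 inside, all within or just before its own span. LOC101156427 on chromosome 14 had 1 inside, 1 at an end and 1 proximal. As 60 genes tied at 2, no further gene was ranked.

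Like the contrast, weak elements had close neighbours more often than elements in all. The gap to the nearest other element had a median of 702.5 bp, against 616 bp in the contrast and 1015 bp for all elements. A gap under 100 bp was found for 9.22% of weak elements (7.82 to 10.8) and 7.03% of the contrast (6.56 to 7.54), and a gap under 1 kb for 56.1% and 60.6%. The nearest element with a score of 300 or more was a median of 47.4 kb away, against 42.3 kb and 57.8 kb. It was closer than 2 kb for 108 weak elements (7.66%, 6.38 to 9.17) and 590 of the contrast (5.70%, 5.27 to 6.16). At gene ends, another element within 1 kb was present for 64.6% of weak and 63.1% of contrast elements, but one of 300 or more for 66 (9.71%, 7.70 to 12.2) and 322 (5.25%, 4.72 to 5.84). The last count was chosen after the others had been seen, and neighbours come from the same list. The farthest members from any gene lay 103 kb from zfp36l2, a gene for an mRNA decay factor (840 bp, score 41.4), 90.9 kb from LOC101171810 (1018 bp, 55.2) and 90.9 kb from LOC111948846 (225 bp, 55.7).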

How the data were processed

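Per the labels and the paper's methods, the authors used Trimmomatic 0.36 for trimming and Bowtie2 2.3.4.1 for alignment, named Picard, bedtools and deepTools among their tools, merged replicates, called peaks with MACS2 2.1.2, filtered them on the q value and merged them over stages. The deposited list gives for each element a score, taken to be a −log10 q value from the authors' peak caller, and a whole number from 1 to 29, read as the number of merged peaks. How scores were combined is not given in the sources used here. The paper maps its gene models to the latest long-read reference genome and its ATAC-seq reads to the reference genome without a build name, and coordinates were read on ASM223467v1, where all 71 ribosomal protein genes had an element within 1 kb of an end.

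TSSs came from the study's TF and lncRNA gene lists. Shares have 95% Wilson intervals and differences 95% Newcombe intervals, and a difference was called where its interval left out 0. Elements to name were the 5 lowest, widest, narrowest and nearest the score limit on each side, the 3 farthest from genes, the 5 and 3 closest to TF and lncRNA TSSs, the genes with the most members, and up to 3 genes per group. Members, lists and tests were chosen with earlier results of these data known. Alternatives changed the score limits, the number of peaks, windows, distances, widths, neighbours, gene set, category order and chromosomes. Placement was tested on simulated data. Python 3.11.15, NumPy 2.4.6, SciPy 1.17.1, pandas 2.3.3 and Matplotlib 3.10.9 were used.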

Additional observations from a re-analysis of the deposited data

Results flagged for a closer look

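Weak elements of 9 peaks were also found outside the chromosomes, in data that none of the comparisons above used. On unplaced scaffolds lay 200 of 1610 such elements (12.4%, 95% Wilson interval 10.9 to 14.1), over 126 scaffolds and with at most 8 on one of them. In the contrast 341 of 10691 (3.19%, 2.87 to 3.54) lay on scaffolds, a difference of 9.23 points (7.67 to 11.0), and of all elements 3.52% did. Under the same limit of 60, elements of 1 peak were on scaffolds in 3.79% of cases, those of 2 to 8 peaks in 3.62% and those of 10 or more in 14.8% (11.8 to 18.3). Scores were not equal, with medians on scaffolds of 12.7, 24.02 and 31.3 against 41.1 for 9 peaks. The share was largest among elements of 9 peaks with a score under 30, of which 41 of 101 (40.6%, 31.5 to 50.3) lay on scaffolds, with a median width of 680 bp. Scaffold elements were not placed against genes.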

How the results depend on the processing

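No paired analysis was possible because the list pools all 18 libraries and holds no value per replicate. The lower share over a gene end than in the contrast kept its sign and its interval left out 0 in all 32 alternatives (−27.3 to −17.2 points). So did the lower share at gene ends in 35 of 36 and the higher share in gene bodies in 33 of 34. For each of these results 24 alternatives left out 1 chromosome. Those kept most elements and could hardly move a share (−22.1 to −21.2 points over a gene end). No alternative took scores of 60 to 100 alone as the contrast, where the gene-end share was 49.5%. Sizes moved by over 1.5 times with gene bodies assigned first (−6.59 points at gene ends, 5.36 in gene bodies), with a 500 bp window (−18.0 at gene ends) and for gene bodies with 8 to 10 peaks (5.80). The exceptions were at a score limit of 30, which left 60 weak elements, with −4.21 points at gene ends and 6.74 points in gene bodies. The lower share at TF gene TSSs no longer left out 0 at a limit of 50 (−1.37), at a limit of 30 (−2.90), without elements closer than 500 bp to another (−1.15) and with a window of 2 kb (−0.984). For elements downstream of a TF TSS the same held at a limit of 30 (43.6 points) and without close neighbours (17.4 points). The uncalled lncRNA difference turned to 0.0128 points without close neighbours and 0.113 points at widths of 200 to 500 bp. The uncalled distal difference turned to −0.0405 points at a limit of 70, −0.148 for 8 to 10 peaks, −0.475 without close neighbours and −1.43 at widths of 200 to 500 bp. Without single chromosomes it turned to −0.0528 (chromosome 3), −0.0201 (5), −0.0282 (6), −0.0445 (7), −0.0127 (9), −0.0194 (10), −0.0248 (11), −0.0568 (13), −0.0174 (14), −0.171 (15) and −0.0428 (22). The median width was 454.5 bp at a limit of 30 and 278 bp for 8 to 10 peaks, and the mean width was 356 bp. The cause of these changes was not tested. The planned sequence and motif shares were not run, since no genome sequence was used here. Depth per library is unknown from the list, and elements too weak for the authors' filter were not seen.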
